A study of Sorghum bicolor with 8 samples.

Results

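The 125 genes described here combined a very high transcript level with little difference between CO2 levels in sorghum prop roots, roots that the lower stem sends out above the soil. They were chosen by the pooled FPKM values themselves from the 34129 genes of the deposited table. A gene was taken when its pooled value was at least 300 FPKM in both groups and its absolute log2 ratio of elevated over ambient CO2, with 1 FPKM added to each value, was under 0.3. FPKM stands for fragments counted per kilobase of a transcript and set relative to library size, so levels can be set side by side between genes. The ratio limit corresponds to a difference of 1.23-fold. Because these values chose the genes, their levels and ratios are a description and carry no test.

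The elevated CO2 group (800 µmol per mol, 4 libraries) and the ambient CO2 group (400 µmol per mol, 4 libraries) were both Sorghum bicolor cultivar BRS330 grown in soil. Both received 1.5 L of water daily up to 60 days after planting and 0.45 L daily for the following 30 days, a reduction of 70%, so all 8 libraries came from plants short of water and a well-watered control was not analysed here. The study's title calls the tissue green prop roots. The authors' table holds 1 pooled value per group and no value of a single library, so values are printed without an SD and the spread between plants is not known.

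In plant tissues a small number of genes supplies a large part of the messenger RNA, and such genes commonly serve basic cell functions such as protein synthesis or are tied to the special work of the tissue. Transcripts that stay at one level across treatments are the usual choice when a reference is needed for measuring other genes. Elevated CO2 raises carbon supply and tends to narrow leaf pores, which saves water; in a C4 grass such as sorghum, water saving is regarded as the main route by which extra CO2 helps under drought. The deposited identifiers are paired with no gene name or function, so the 125 genes are described by identifier, level, position and surroundings, and the tissue label was not checked against marker genes.

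The summed values of the steady abundant genes came to 92137 FPKM in the elevated group and 91497 FPKM in the ambient group. This was 15.9% of the FPKM of all genes under elevated CO2 and 14.02% under ambient CO2. That gap follows in part from choosing genes of nearly equal FPKM: applying the rule after scaling both groups to the same summed FPKM gave a set of 133 genes with 13.7% in the elevated and 13.3% in the ambient group. The members' own sum therefore differed by a ratio of only 1.007, while the sum over all genes was lower by 73028 FPKM under elevated CO2. Over the members that were higher under elevated CO2 the differences came to 4897 FPKM, and over those that were lower to -4257 FPKM. The sign of the small net gain rests on 1 gene: without Sobic.002G324200 the members' sum was 85356 FPKM in the elevated and 85804 FPKM in the ambient group.

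The median level of the 125 genes was 466.2 FPKM in the elevated and 486.2 FPKM in the ambient group. Directions were close to balanced, with 64 genes higher and 61 lower under elevated CO2 on the deposited scale. With both groups scaled to the same summed FPKM, which shifts ratios by 0.17 on the log2 scale, 102 of the 125 were higher and 23 lower. The same scaling raised the count of higher genes among all tested genes to 10680 of 16280 (65.6%), against 7591 on the deposited scale. The median log2 ratio was 0.0016, against -0.03 over the 16280 genes the authors tested. An absolute log2 ratio under 0.1 was shown by 55 members, one from 0.1 to 0.2 by 43, and one of 0.2 or more by 27. In 8 members it was under 0.01.

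**Figure D1:**
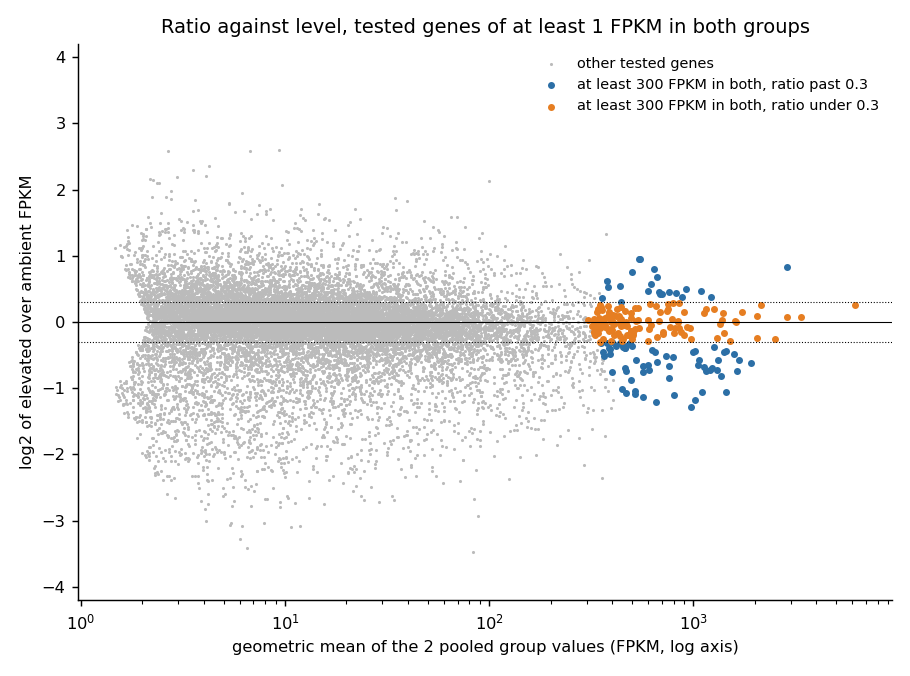
Each point is a gene tested by the authors with at least 1 FPKM in both groups. The x axis gives the geometric mean of both pooled values in FPKM on a log axis, the y axis the log2 of elevated over ambient FPKM, and dotted lines mark ratios of 0.3 in either direction. The 125 steady abundant genes (orange) fill the band between the lines at the right end, and of the 84 other genes of this level (blue) 62 lie below the band and 22 above it.

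The most abundant transcript of the whole table in either group was a member. Sobic.002G324200 (chromosome 2, 69501545 to 69504021) had 6782 FPKM under elevated and 5693 FPKM under ambient CO2, a log2 ratio of 0.25. Alone it made up 1.17% of all FPKM in the elevated group and 0.872% in the ambient group. It was followed among the members by Sobic.005G228700 (chromosome 5, 71599141 to 71600181), with 3470 FPKM in elevated and 3279 FPKM in ambient CO2. Sobic.001G141300 (chromosome 1, 11339408 to 11340551) had 2935 FPKM in elevated and 2795 FPKM in ambient CO2. In both of these genes the groups stood within 1.06-fold of each other.

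The next members differed from each other in direction. Sobic.002G356101 (chromosome 2, 71899475 to 71901112) was lower under elevated CO2, at 2291 FPKM against 2730 FPKM in ambient (log2 -0.25). Sobic.008G136000 (chromosome 8, 56470317 to 56474560) was higher, at 2348 FPKM in elevated against 1954 FPKM in ambient (log2 0.26). Sobic.001G370600 (chromosome 1, 65908122 to 65909557) had 1885 FPKM in elevated and 2221 FPKM in ambient CO2 (log2 -0.24). These 3 genes sit close to the ratio limit.

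Sobic.002G207300 (chromosome 2, 59906188 to 59908851) had 2108 FPKM in elevated and 1985 FPKM in ambient CO2. Sobic.004G006300 (chromosome 4, 534523 to 536909) had 1820 FPKM in elevated and 1644 FPKM in ambient CO2 (log2 0.15). The last of the 10 highest were Sobic.007G057100 (chromosome 7, 5884243 to 5885271), with 1624 FPKM in elevated and 1617 FPKM in ambient CO2, and Sobic.008G185900 (chromosome 8, 62029744 to 62031523), with 1605 FPKM in elevated and 1592 FPKM in ambient CO2. For this last pair of genes the groups differed by less than 1.01-fold. Of the 10 highest members, 8 were higher under elevated CO2, and together they held 29.2% of the members' FPKM in the elevated and 27.9% in the ambient group.

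**Figure D2:**
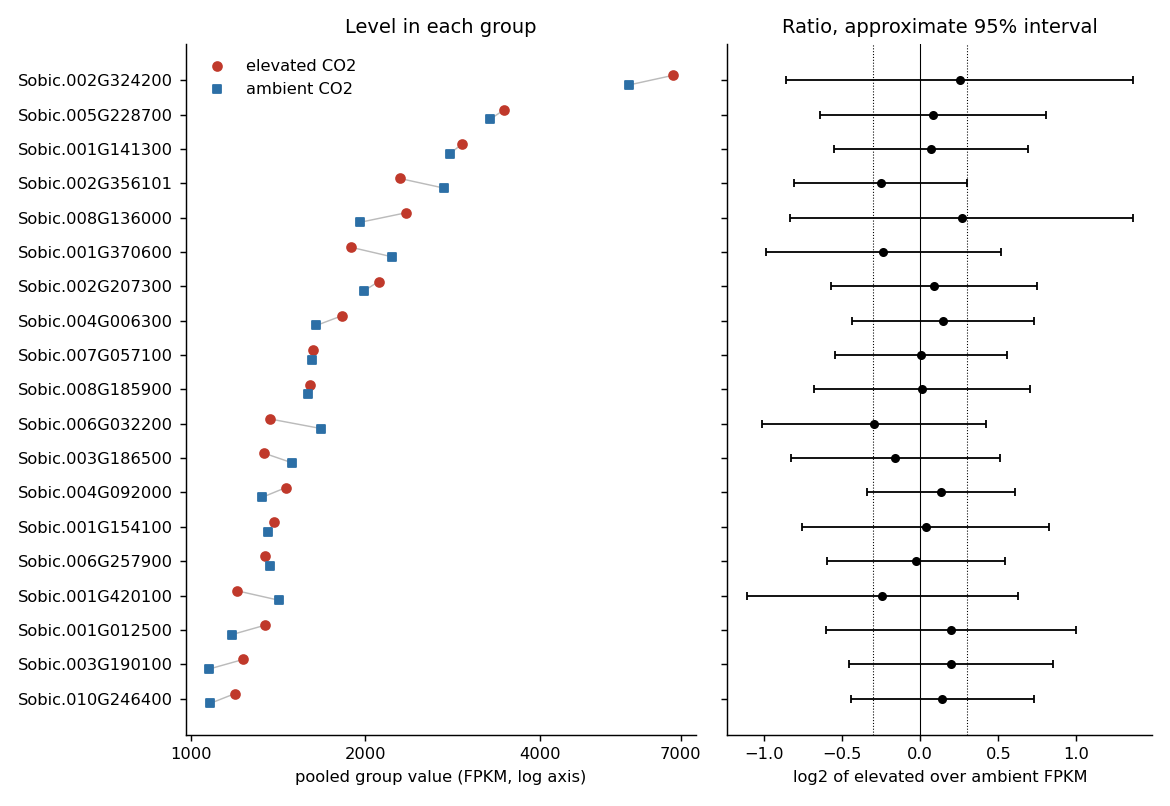
The 19 members with a mean of at least 1000 FPKM, highest at the top. On the left, red circles give the pooled FPKM of the elevated group and blue squares that of the ambient group on a log axis; on the right, points give the log2 of elevated over ambient FPKM with an approximate 95% interval computed from the authors' p-value, and dotted lines mark 0.3 in either direction. Levels fall from 6782 and 5693 FPKM in the top gene to 1189 and 1079 FPKM in the lowest one, and all 19 intervals reach past at least 1 dotted line.

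The places of the steady genes in the order of all genes follow in part from the rule, which holds their levels nearly equal while the sum over all genes was lower under elevated CO2, so they are a description. Members filled 9 of the 10 highest places under elevated CO2, against 5 of 10 under ambient CO2. The gene at the remaining place in the elevated group was Sobic.003G117000, with 3813 FPKM in elevated and 2154 FPKM in ambient CO2. Among the 200 highest genes 111 were members in the elevated group and 87 in the ambient group. Ranked from the highest gene down, 103 members had a better place under elevated CO2, 21 a worse one and 1 the same. This included 42 genes whose FPKM was lower under elevated CO2. Over the whole table, 233 genes reached 300 FPKM under elevated CO2 and 310 under ambient CO2.

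The members just inside the limits and the genes just outside them had similar values. Nearest to the ratio limit inside it were Sobic.006G032200, at 1368 FPKM in elevated and 1676 FPKM in ambient CO2 (log2 -0.29), Sobic.009G140800, at 316 FPKM in elevated and 387 FPKM in ambient CO2 (log2 -0.29), and Sobic.006G135600, at 936 FPKM in elevated and 766 FPKM in ambient CO2 (log2 0.29). Just outside it were Sobic.001G402050 (log2 -0.31), Sobic.002G056300 (log2 0.31) and Sobic.009G131100 (log2 -0.31). A few hundredths on the log2 scale separate these genes.

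At the level limit, the lowest member was Sobic.010G234000 (chromosome 10, 57660660 to 57662280), with 305.7 FPKM in elevated and 300.5 FPKM in ambient CO2. Next came Sobic.001G436200, at 307.8 FPKM in elevated and 353.2 FPKM in ambient CO2, and Sobic.001G237300, at 308.6 FPKM in elevated and 340.9 FPKM in ambient CO2. The nearest steady genes below the limit were Sobic.007G053300 (299.8 FPKM in elevated, 330.1 FPKM in ambient), Sobic.007G178600 (298.2 FPKM in elevated, 326.1 FPKM in ambient) and Sobic.009G163800 (297.2 FPKM in elevated, 341.2 FPKM in ambient). In the 3 genes below the limit, the elevated value was the one under 300 FPKM.

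The smallest differences of all were those of Sobic.010G149300 (chromosome 10, 42980289 to 42982321), with 466.2 FPKM in elevated and 466.0 FPKM in ambient CO2, of Sobic.002G353400 (chromosome 2, 71650326 to 71654097), with 402.7 FPKM in elevated and 403.2 FPKM in ambient CO2, and of Sobic.002G135200 (chromosome 2, 20168984 to 20171576), with 354.8 FPKM in elevated and 354.4 FPKM in ambient CO2. The first of these genes lies at the members' median level in elevated CO2, and the other two lie below it.

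By mean level, 68 members lay from 300 to 500 FPKM, 38 from 500 to 1000 FPKM and 19 at 1000 FPKM or more. On the deposited scale, elevated values were higher in 33 of the 68, in 18 of the 38 and in 13 of the 19. The median absolute log2 ratio was 0.10 in the lowest of these classes, 0.15 in the middle one and 0.15 in the highest. Of all genes with at least 300 FPKM in both groups, the members made up 73.1% in the lowest class, 52.8% in the middle one and 43.2% at 1000 FPKM or more. In the lowest of these classes the level limit on both groups already leaves out unequal pairs of values, so its share is high by construction.

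None of the 125 members was called by the authors' test at a q-value under 0.05, against 11.5% of all tested genes in the authors' deposited table. At a q-value under 0.01 the share of all tested genes in the authors' deposited table was 7.12%, and again no member was among them. The rule bounds the ratio, so nothing is read from these counts. None had an unadjusted p under 0.05 either, and the smallest p among them in the authors' deposited table was 0.248. A p that misses the threshold does not show that a level was the same in both groups.

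How closely these data fix the ratios was read from an approximate standard error, the authors' log2 ratio divided by the normal deviate of their p-value. Its median over the members was 0.27 on the log2 scale, with a lowest value of 0.22 and a highest of 0.57. On this measure, the approximate 95% interval lay between -1 and 1, a doubling in either direction, in 121 of the 125 members. It lay between -0.5 and 0.5 in 9. For Sobic.002G324200 it ran from -0.86 to 1.36, for Sobic.008G136000 from -0.83 to 1.36, for Sobic.001G420100 from -1.11 to 0.62 and for Sobic.006G032200 from -1.01 to 0.42. Those are the 4 members whose interval passes a doubling, and all of them had a mean of at least 1000 FPKM. The smallest standard error belonged to Sobic.010G237000, with 366 FPKM in elevated and 318 FPKM in ambient CO2 and an interval from -0.23 to 0.63. The authors' test gave this gene a score of 0.309 with a p of 0.362. For Sobic.002G324200 the score was 0.157 with a p of 0.656. In both genes the normal deviate of the p is larger than the score. The mismatch was not limited to them. In size it was also present in Sobic.005G228700 (score 0.0784, p 0.825) and in Sobic.002G372400 (score -0.409, p 0.248), the member with the smallest p. Standard errors computed from the scores would be larger in these genes. The intervals may therefore be too narrow, and the counts of 121 and 9 members may be too high. Intervals from the scores were not computed.

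The approximate standard error was larger at higher levels: its median was 0.25 from 300 to 500 FPKM, 0.28 from 500 to 1000 FPKM and 0.34 above that. Across the 125 members its Spearman correlation with mean level was 0.52 and with locus span 0.35. These are descriptions across genes of the same pooled libraries, not across independent samples. Among the other genes of at least 300 FPKM in both groups, the smallest absolute log2 ratio with a call in the authors' deposited table was 0.81, and a gene with 1.21 was not called. No gene of this level was thus called at a ratio of the size that the rule allows. Whether differences that small could be detected was not tested, and genes of lower level were not examined for this.

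The 84 genes of the same level that were left out by the ratio limit leaned to lower values. On the deposited scale, tested genes past the limit did so at lower levels too. By the lower of both group values, 255 were lower and 59 higher from 100 to 300 FPKM, and 984 and 500 from 20 to 100 FPKM. From 5 to 20 FPKM they numbered 1168 and 981, and from 1 to 5 FPKM 1188 and 900. These counts by level were not redone with both groups scaled to the same summed FPKM. Under that scaling 65.6% of all tested genes were higher. Under elevated CO2, 62 of the 84 were lower and 22 higher on the deposited scale. Scaling both groups to the same summed FPKM could not change these counts. Each of the 84 lies past the ratio limit, and the shift from the scaling is smaller than that limit. Whether the lean remains when the set is redrawn under the scaled rule was not tested. Of the 84, 8 were called in the authors' deposited table (9.52%, against 11.5% of all tested genes). Of these calls 6 fell and 2 rose, and of all tested genes 9.04% were called lower and 2.42% higher. With q recomputed over the 209 genes of this level, 1 call was left, a gene that rose, and 0 of the falls. The values of the 84 genes summed to 59622 FPKM in elevated and 75819 FPKM in ambient CO2. Their median level was 583.0 FPKM in the elevated and 719.2 FPKM in the ambient group. A further 101 genes reached 300 FPKM under ambient CO2 only, of which 17 were within the ratio limit, and 24 under elevated CO2 only, of which 5 were.

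Steadiness by this measure was common at all levels. Among all tested genes, 61.2% had an absolute log2 ratio under 0.3. Sorted by the lower of both group values, the share was 49.9% from 1 to 5 FPKM, 66.9% from 5 to 20 FPKM, 66.7% from 20 to 100 FPKM, 58.2% from 100 to 300 FPKM and 59.8% at 300 FPKM or more. Sorting by the mean of both groups, which does not hold back genes that are low in 1 group, gave 53.0% from 100 to 300 FPKM and 133 of 266 genes at 300 FPKM or more. In that highest class 104 genes were lower by at least the limit and 29 higher, on the deposited scale.

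Locus span was short among the members. The rule did not use the span itself, but FPKM is counted per kilobase of transcript. Transcript length therefore enters the level that chose the genes, and the spans are a description. The span of the deposited locus, its end minus its start with introns included, had a median of 2475 bp in the members, 2605 bp in the 84 other abundant genes and 4033 bp in all tested genes. Spans under 2500 bp were found in 65 members (52.0%), against 24.5% of tested genes. Only 2 members spanned more than 10000 bp (1.60%, against 8.83% of tested genes). From 1000 to 2500 bp, 58 of 3193 tested genes were members (1.82%), and from 5000 to 10000 bp 10 of 4489 (0.223%). Under 1000 bp the share was lower again, with 7 of 795 tested genes (0.881%). Spans this short were found in 5.6% of the members and in 11 of the 84 other abundant genes (13.1%), a difference that was not tested.

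**Figure D3:**
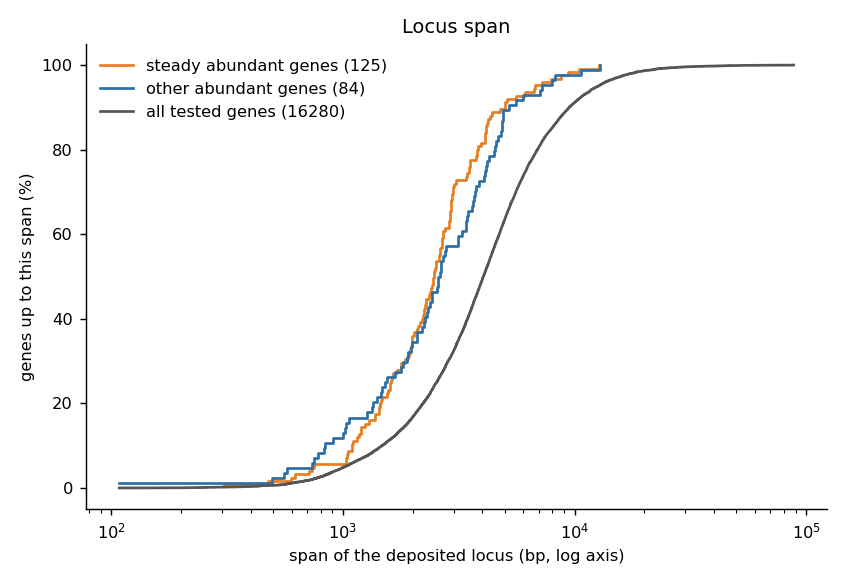
Cumulative share of genes (y axis, percent) up to a given span of the deposited locus (x axis, bp, log axis) for the 125 steady abundant genes, the 84 other abundant genes and the 16280 tested genes. Both abundant sets run well to the left of all tested genes, with medians of 2475 bp and 2605 bp against 4033 bp.

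The shortest member locus was that of Sobic.003G158600 (chromosome 3, 18206541 to 18206847), which spans 306 bp. It had 611 FPKM in elevated and 715 FPKM in ambient CO2. Sobic.004G092000 (chromosome 4, 7835052 to 7835526) spans 474 bp and had 1457 FPKM in elevated and 1327 FPKM in ambient CO2. At the other end stood Sobic.006G032200, with 12687 bp, and Sobic.001G350501, with 10418 bp. Both of these long loci are listed with the same start and end for other genes too, so the span of the gene itself is not known.

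In all, 7 members shared their deposited locus with another gene (5.6%, against 4.76% of the other abundant genes and 11.6% of tested genes). The partners were far lower than the member in each case. Sobic.006G032200 shared its locus with Sobic.006G032100, which had 21.8 FPKM in elevated and 25.5 FPKM in ambient CO2. Sobic.001G435800 had 331.4 FPKM in elevated and 322.2 FPKM in ambient CO2, and its partner Sobic.001G435900 had 57.4 FPKM in elevated and 59.9 FPKM in ambient CO2. The partners of 4 further members were listed at 0 in both groups. How reads were divided between overlapping genes in the authors' counting is not known here.

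Members lay on all 10 chromosomes, in shares close to those of the tested genes on most of them. Chromosome 1 held 24 members (19.2%, against 18.6% of tested genes), chromosome 2 held 21 (16.8% against 12.6%) and chromosome 10 held 14 (11.2% against 8.20%). Chromosomes 5 and 8 held 3 members each (2.40%), with 4.78% and 4.77% of the tested genes. On chromosome 10, 12 of the 14 members were higher under elevated CO2. It was 2 of 9 on chromosome 9, 3 of 11 on chromosome 6 and 2 of 7 on chromosome 7. Among all tested genes, 46.1% were higher on chromosome 10, 44.8% on chromosome 9, 48.4% on chromosome 6 and 50.4% on chromosome 7. Of the 5 other abundant genes on chromosome 10, 2 were higher and 3 lower on the deposited scale. With both groups scaled to the same summed FPKM the counts of higher members were 13 of 14 on chromosome 10, 6 of 9 on chromosome 9 and 7 of 11 on chromosome 6, beside 64.3%, 63.4% and 66.7% of the tested genes on chromosomes 10, 9 and 6. The differences behind the members' counts are within the ratio limit, and none of these counts was tested.

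**Figure D4:**
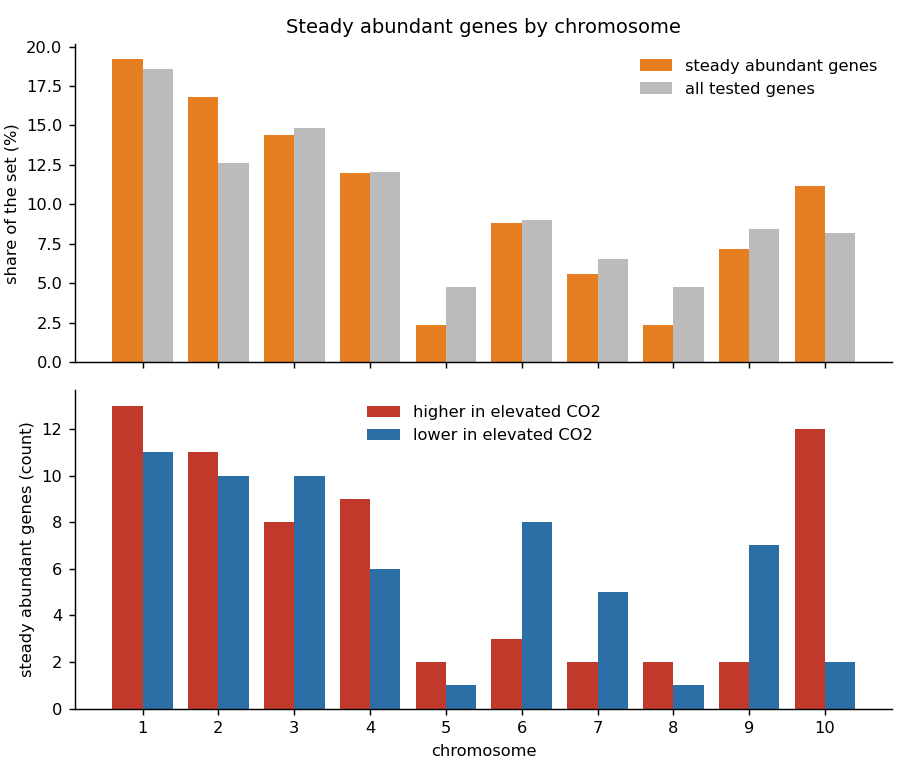
Above, the share of the 125 steady abundant genes (orange) and of all tested genes (grey) on each chromosome, in percent. Below, the number of steady abundant genes with a higher (red) or lower (blue) value under elevated CO2: on chromosome 10 the counts are 12 and 2, and on chromosome 9 they are 2 and 7, which turns to 6 and 3 with both groups scaled to the same summed FPKM.

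Few members stood side by side. Any scattered set of 125 among the 34129 listed genes would hold few such pairs, so nothing is read from the count. A direct neighbour that was also a member was found for 2 of the 125. These were Sobic.004G050000 (chromosome 4, 4036135 to 4039089), with 328.4 FPKM in elevated and 393.4 FPKM in ambient CO2, and Sobic.004G050100 (chromosome 4, 4042867 to 4045944), with 606.1 FPKM in elevated and 594.2 FPKM in ambient CO2. On chromosome 1, between 71420926 and 71443710, 3 members stood with 1 other gene between each. Sobic.001G435800, described above, was followed by Sobic.001G436000, with 507.6 FPKM in elevated and 486.2 FPKM in ambient CO2, and by Sobic.001G436200. The gene between the last pair, Sobic.001G436100, had 31.7 FPKM in elevated and 35.9 FPKM in ambient CO2. Whether such neighbours are copies of each other was not analysed here, and reads shared between copies would make their values dependent.

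Of 246 direct neighbours that were not members, 139 had been tested, and only 1 also had at least 300 FPKM in both groups. The tested neighbours had a median of 11.7 FPKM in elevated and 13.2 FPKM in ambient CO2, beside 12.6 and 13.1 FPKM for all tested genes in elevated and ambient CO2. Over all 246 neighbours, tested or not, the medians were 3.02 FPKM in elevated and 3.70 FPKM in ambient CO2, higher than the 1.32 and 1.47 FPKM of all listed genes in elevated and ambient CO2. Of the neighbours 56.5% were tested, against 47.7% of all listed genes. By the authors' deposited table, 12 of these neighbours fell (8.63%, against 9.04% of all tested genes) and 1 rose (0.719%, against 2.42%). Ratios under the limit were found in 67.6% of tested neighbours, beside the 61.2% of all tested genes. The shares of called neighbours are near those of all tested genes or rest on 1 gene, so nothing is read from them.

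Several members nonetheless stood beside a gene that changed. Sobic.009G190800 had 404.2 FPKM in elevated and 468.3 FPKM in ambient CO2, and 6357 bp away Sobic.009G190700 fell to 39.8 FPKM in elevated, against 137 FPKM in ambient CO2. Sobic.005G055000 had 406.0 FPKM in elevated and 415.0 FPKM in ambient CO2, and 259 bp away Sobic.005G054900 fell to 4.003 FPKM in elevated, against 15.3 FPKM in ambient CO2. Beside Sobic.003G064300, at 546.4 FPKM in elevated and 663.2 FPKM in ambient CO2, Sobic.003G064200 fell to 6.08 FPKM in elevated, against 17.6 FPKM in ambient CO2, with 13 bp between the loci. The only neighbour that rose was Sobic.010G234700, at 21.8 FPKM in elevated against 9.31 FPKM in ambient CO2, next to Sobic.010G234600, at 786.9 FPKM in elevated and 698.3 FPKM in ambient CO2. In these examples a steady gene and a changed gene lay within a few kilobases of each other.

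The median number of annotated genes in the 1 Mb around a member was 122, beside 122 for the 84 other abundant genes and 113 for tested genes. The gap to the nearest gene had a median of 1560 bp for members, 1623.5 bp for the other abundant genes and 1135 bp for tested genes. In the outer 20% of the chromosome at either end lay 81.6% of members, 89.3% of the other abundant genes and 78.5% of tested genes. The chromosome end was taken as the last deposited locus. Identifiers that do not end in 00, given to gene models placed between older ones, made up 5 of the 125 members (4%, against 5.41% of tested genes).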

How the data were processed

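RNA sequencing libraries of prop roots (4 per CO2 group) were prepared from 100 mg of tissue with Illumina's TruSeq Stranded mRNA chemistry, per the labels' protocols. Tools in the submitters' processing notes are Trimmomatic 0.36, HISAT2, Cuffdiff and Cufflinks 2.2.1, without settings. The authors deposited 1 FPKM value per group and gene, pooled over libraries, with the log2 ratio of elevated over ambient CO2, a test score, a p-value and a q-value per gene; per the file headers these follow the Cuffdiff layout. Identifiers carry the annotation suffix 3.2, with genome build and library normalization not given in the sources used here. Nothing states that libraries stem from separate plants, so the p-values may measure technical spread. Read depth is unknown, so no interval or floor from counts is given. The kit marks strand; the setting used in counting is not known.

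From these values a ratio with a pseudocount of 1 FPKM, ranks, sums, medians, locus spans and neighbours in order of the deposited loci were computed (Python 3.11.15, pandas 2.3.3, scipy 1.17.1). Loci are printed as deposited. The approximate standard error assumes a normal deviate behind each deposited p-value, which the deposited test scores given above do not match. Its computation and the member rule were tested on simulated data, with p-values drawn under that assumption. Calls are the authors' q under 0.05. The members and lists were chosen with earlier results of these data known. Named genes are the 10 highest members, the 3 with the smallest and the 3 with the largest ratio and the 3 on each side of each limit; other genes named (extreme spans, wide or narrow intervals, shared loci, neighbours and the order of places) were chosen after their values were seen. A RefSeq table of 32945 genes (assembly Sorghum_bicolor_NCBIv3) matched 0 identifiers, so lists by product name, protein families and promoter motifs have no result, and no sequence is shown. The deposited subsets of called genes hold no member and were not used.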

Additional observations from a re-analysis of the deposited data

How the results depend on the processing

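Of 86 values computed under alternative settings, 75 stayed within 1.5 times the reported count or share, or, for a median, within its 95% order-statistic interval over genes. Part of this tally was fixed in advance, so it is a description. A pseudocount of at most 1 FPKM hardly changes ratios at 300 FPKM or more, and the rule bounds the ratio behind each count of called members. The number of members was 226 with a level limit of 200 FPKM and 51 with one of 500 FPKM, which follows from the limit, and genes sharing a locus then numbered 12 and 1. Members next to another member numbered 6 and 0 under those limits, 0 with a ratio limit of 0.2, 4 with one of 0.5 and 5 with 1 gene allowed between. Leaving out genes that share a locus leaves 0 locus-sharing members by construction. Scaling both groups to the same summed FPKM gave a median log2 ratio of 0.032; it gave 133 members, of which 96 were among the 125 (76.8% of the reported and 72.2% of the alternative set). That scaling shifts each ratio by 0.17 on the log2 scale, so which genes count as steady depends on it, and the authors' library normalization is not known. Centring on the median of tested genes kept 123 of the 125. Pseudocounts of 0 and 0.1 FPKM gave the same 125 genes. A limit on the mean of the groups gave 133, and the shares of summed FPKM without the highest member were 14.7% in the elevated and 13.1% in the ambient group; both settings, and sorting level classes by the mean, were chosen after seeing the data. No member was called under any setting of the rule, at q under 0.01 or with q recomputed over the 209 genes of this level. Each setting of the rule bounds the ratio, and the smallest p among the 125 in the authors' deposited table was 0.248. Nothing is therefore read from the absence of calls. No paired analysis was possible because each group has a single pooled value, and leaving out libraries was likewise not possible. The alternatives for promoter motifs and protein families were not run, since no sequence was at hand.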
